A study of Oncorhynchus mykiss with 14 samples.

Results

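The miR-130, miR-301 and miR-454 family was followed in small RNA libraries of adipocytes (mature fat cells, which store lipid) isolated from 3 depots of adult rainbow trout (Oncorhynchus mykiss). Members were all entries of the deposited miRNA table whose Atlantic salmon name (prefix ssa) begins with miR-130, miR-301 or miR-454, on either arm of the precursor, and whose read count was above 0 in at least 4 of 14 libraries. This gave 12 of the 13 entries with such a name, out of 899 entries listed and 327 tested. The rule used no difference between depots. The libraries came from visceral fat (VAT, 4 libraries, replicates 1, 3, 4 and 5), subcutaneous fat (SAT, 5 libraries) and intramuscular fat (IMAT, 5 libraries). All fish were untreated, were kept under the same conditions at one temperature and photoperiod, and went without food for a day before sampling. No strain or genotype is named, and adipocytes were freed from the dissected depots with collagenase. The labels do not say that the libraries of a depot came from separate fish, so p-values measure only the spread between these libraries, which may be technical.

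A miRNA precursor is a hairpin whose 5p and 3p arms can each yield a mature miRNA of about the same length. In vertebrates the 3p arms of miR-130, miR-301 and miR-454 share a seed, the stretch that pairs with target mRNAs, and are regarded as the working strands, while the 5p arms are mostly regarded as passenger strands. In human and mouse cells miR-130a and miR-130b repress PPARG, the transcription factor that drives fat cell formation, and so restrain that process. In mammals miR-301a and miR-454 lie together in one gene and miR-130b lies beside miR-301b. None of these roles was measured here.

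The table gives whole-number reads per entry. Summed counts per library ran from 4525742 to 11076843 in VAT, from 2060776 to 4042846 in SAT and from 759369 to 11843805 in IMAT. A list of skeletal muscle miRNAs (9 entries of miR-1, miR-133, miR-206 and miR-499) took 65.5 to 89.6% of the counts in IMAT, 3.37 to 11.9% in SAT and 0.0888 to 4.65% in VAT. No list of miRNAs that define adipocytes was used, so the labelled cell type was checked only through markers of other cells. Besides the muscle list, edgeR called 3 of 3 gut and liver entries lower in IMAT and 2 of 3 lower in SAT than in VAT, 2 of 3 neuronal entries lower in IMAT than in VAT, 4 of 11 epithelial and skin entries higher in SAT and in IMAT than in VAT, and 1 of 11 lower in IMAT than in SAT. The 11 epithelial and skin entries had a median log2 fold change of 0.37 between SAT and VAT (-0.05 over all entries tested). Their median was -0.97 between IMAT and VAT and -1.32 between IMAT and SAT (-0.60 and -0.43 over all entries). None of the entries for blood cells, endothelium or stroma was called. The 3 white blood cell entries tested had a median log2 fold change of -2.31 between SAT and VAT and -1.75 between IMAT and VAT. Between IMAT and SAT it was -0.14. That list took 0.0356 to 0.112% of the counts in VAT, 0.0233 to 0.0616% in SAT and 0.00352 to 0.0169% in IMAT. The endothelial entry stood at 1.21, -0.07 and -1.28 in the same order of comparisons. The 3 lists other than muscle with calls took at most 0.163% of the counts of any library. Larger shares went to 2 lists without calls. The endothelial entry took 1.23 to 4.37% of the counts in VAT, 5.21 to 8.24% in SAT and 0.506 to 1.40% in IMAT. Stroma and smooth muscle took 2.42 to 6.42%, 7.60 to 10.9% and 1.03 to 2.50%. The part of these lists in the results was not tested. Levels of entries off the muscle list stand in IMAT against a total of which muscle miRNAs are the larger part. Unless another scale is named, levels below are TMM-scaled CPM, that is counts per 1000000 (CPM) after the trimmed-mean scaling of edgeR, given as mean ± SD over the libraries of a depot. Less of a miRNA per cell and fewer of the cells that make it cannot be told apart in such bulk libraries.

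Of the 12 entries 7 belonged to miR-130, 4 to miR-301 and 1 to miR-454, with 6 on the 5p and 6 on the 3p arm. Several had the same counts. The 4 entries for miR-130d had equal counts in 13 libraries and differed in 1, IMAT 1, where 3 of them held 7 reads and miR-130d-3p was listed at 0. The ssa-miR-130b-2-5p and miR-130b-3p entries had equal counts in 6 of 14 libraries, and miR-301d-5p and miR-301d-3p in 7 of the 10 in which either was above 0. Equal counts on opposite arms leave the arm of miR-130b and miR-301d uncertain, and near-identical copies could share reads; with no sequences used here, whether they did was not tested. By name the 12 entries fall into 7 forms, miR-130a, miR-130b, miR-130d, miR-301b, miR-301c, miR-301d and miR-454, and miR-130d is numbered as several copies. For sums over the family the highest count among the entries of a form was used, so that each form counts once. Among the 13 entries with a family name none was miR-130a-3p, miR-454-3p or a 3p arm of miR-301a, miR-301b or miR-301c. These arms could therefore not be followed.

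ssa-miR-130a-5p, named for the arm mostly regarded as the passenger strand, held most of the family's reads in every library. Its counts were 1494, 1140, 9629 and 2049 in VAT 1, 3, 4 and 5. In SAT 1 to 5 they were 1437, 1512, 1300, 953 and 1228. In IMAT 1 to 5 they were 198, 136, 127, 55 and 1501. VAT 4 stood far above the other VAT libraries, and the IMAT libraries other than IMAT 5 held the fewest reads. Scaled by TMM, its level was 364 ± 392.5 in VAT (n = 4), 297 ± 84.3 in SAT (n = 5) and 118 ± 39.2 in IMAT (n = 5). These means ranked 72nd, 74th and 89th of the 228 named entries tested. The VAT range of 121 to 945 enclosed the SAT range of 216 to 412, while the highest IMAT library, at 184, lay below the lowest SAT library and within the VAT range.

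**Figure D1:**
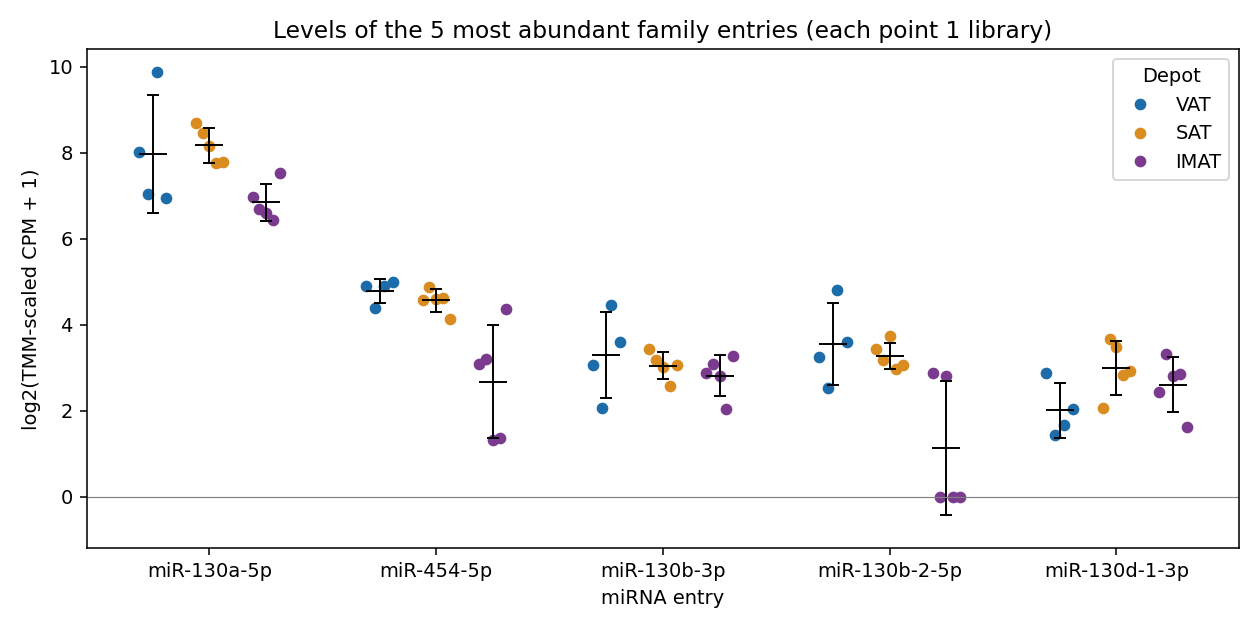
Level of 5 family entries, as log2(TMM-scaled CPM + 1), in each library of VAT (blue), SAT (orange) and IMAT (purple). Black marks show the mean and SD of the log2 values over 4, 5 and 5 libraries. miR-130a-5p lies above the other 4 entries in all libraries, with VAT 4 at 945 on the unlogged scale.

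Between IMAT and VAT the fitted log2 fold change of miR-130a-5p was -1.62 ± 0.56 (SE; edgeR quasi-likelihood test, two-sided, Benjamini-Hochberg adjusted p = 0.068 over all 327 entries), which did not pass the threshold of 0.05. Between IMAT and SAT it was -1.32 ± 0.53 (edgeR adjusted p = 0.13), and between SAT and VAT -0.29 ± 0.55 (edgeR adjusted p = 0.86). Among the libraries left out in turn, VAT 4 moved the first of these values most: without it the value was -0.34 (edgeR adjusted p = 0.43). Scaling moved it too. With library totals as the only scaling it was -3.01 (edgeR adjusted p = 0.0024). With totals that leave out muscle miRNAs it was -1.51 where TMM was applied as well (edgeR adjusted p = 0.090). With those totals as the only scaling, a setting added after seeing the data, it was -0.70 (edgeR adjusted p = 0.43). The medians of all entries in the same order were -1.98, -0.49 and 0.30. The difference between IMAT and SAT was -2.64, -0.92 and -0.44 (edgeR adjusted p = 0.0049, 0.36 and 0.67). Medians of all entries between IMAT and SAT were -1.81, -0.04 and 0.52. The difference between IMAT and VAT passed without VAT 3 (-1.90, edgeR adjusted p = 0.035), VAT 5 (-1.93, 0.026) or IMAT 5 (-1.48, 0.041). It passed in 9 of 27 alternatives in all, whose adjusted p ran from 0.0021 to 0.43. Without VAT 4 the difference between IMAT and SAT was -0.87 and passed (edgeR adjusted p = 0.045, range over 27 alternatives 0.0010 to 0.67). The SAT and VAT difference had the opposite sign without VAT 4, 0.54 (edgeR adjusted p = 0.29).

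miR-454-5p, whose precursor is the neighbour of miR-301a in mammals, was the second most abundant member over all libraries. Its TMM-scaled CPM was 28.8, 19.9, 28.7 and 31.1 in VAT 1, 3, 4 and 5, and 22.9, 28.6, 23.4, 23.6 and 16.5 in SAT 1 to 5. In IMAT 1 to 5 it was 7.56, 8.24, 1.5, 1.56 and 19.7, from 12, 11, 2, 1 and 161 reads. IMAT 5 lay near the other depots and the other 4 IMAT libraries lay below them. The mean level was 27.1 ± 4.92 in VAT, 23.0 ± 4.31 in SAT and 7.71 ± 7.42 in IMAT. At 19.7, IMAT 5, the highest IMAT library, lay just under the lowest VAT value, 19.9, and above the lowest SAT value, 16.5. IMAT 5 was also the IMAT library with the smallest share of muscle miRNAs, 65.5% against 79.4 to 89.6% in the others. It was the deepest one too, with 11843805 counts against 759369 to 4429852 in the others. The part of muscle share and of depth in the result was not tested.

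The fitted log2 fold change of miR-454-5p was -1.77 ± 0.63 between IMAT and VAT (edgeR adjusted p = 0.077) and -1.53 ± 0.61 between IMAT and SAT (edgeR adjusted p = 0.13), so neither passed. Without IMAT 5 both passed, at -2.45 (edgeR adjusted p = 0.0072) and -1.91 (edgeR adjusted p = 0.030). With library totals as the only scaling the values were -3.16 and -2.83 (edgeR adjusted p = 0.0033 and 0.0059). That setting called 162 and 131 of all 327 entries, whose medians were -1.98 and -1.81. With totals that leave out muscle miRNAs they were -1.62 and -1.10 where TMM was applied as well (edgeR adjusted p = 0.11 and 0.36). With those totals as the only scaling, added after seeing the data, they were -1.05 and -0.81 (edgeR adjusted p = 0.21 and 0.36). Medians of all entries were -0.49 and -0.04 with TMM on those totals, and 0.30 and 0.52 without it. Over 28 alternatives the adjusted p ran from 0.00027 to 0.27 against VAT, with 7 calls, and from 0.00041 to 0.48 against SAT, with 4 calls. Between IMAT and SAT the value moved to -0.87 without IMAT 3 and -0.91 without IMAT 4, where it did not pass. Between SAT and VAT the difference was -0.24 ± 0.62 (edgeR adjusted p = 0.93).

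The entries of miR-130b, which represses PPARG in human and mouse fat cells, had unequal counts in 8 libraries. miR-130b-3p held 43, 28, 213 and 188 reads in VAT 1, 3, 4 and 5, then 34, 35, 32, 22 and 41 in SAT 1 to 5, and 10, 10, 8, 2 and 71 in IMAT 1 to 5. miR-130b-2-5p held 49, 42, 275 and 188 reads in VAT, 34, 35, 56, 30 and 41 in SAT, and 10, 0, 8, 0 and 0 in IMAT. In VAT 1, VAT 3, VAT 4, SAT 3 and SAT 4 the 5p entry was the higher one. Reads of the 3p entry were present in all 14 libraries, while the 5p entry was listed at 0 in IMAT 2, IMAT 4 and IMAT 5, in the last of which the 3p entry held 71 reads. Whether these zeros measure absence was not tested. miR-130b-3p had levels of 10.7 ± 7.55 in VAT, 7.44 ± 1.72 in SAT and 6.32 ± 2.08 in IMAT, and its 3 ranges overlapped. The highest VAT library was again VAT 4, at 20.9.

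No comparison of miR-130b passed in the main fit. Of 28 alternatives, 3 called each entry between IMAT and VAT and between IMAT and SAT. These were library totals as the only scaling and limma on log2 of deposited CPM with a pseudocount of 1 or 0.1. All 3 use totals that include muscle miRNAs. miR-130b-3p had log2 fold changes of -0.74 ± 0.56 between IMAT and VAT, -0.22 ± 0.54 between IMAT and SAT and -0.52 ± 0.56 between SAT and VAT (edgeR adjusted p = 0.40, 0.82 and 0.69). The value for IMAT and VAT was -0.02 without VAT 4. miR-130b-2-5p, with its 3 zeros in IMAT, gave -2.37 ± 1.20, -1.83 ± 1.15 and -0.54 ± 1.14 in the same order (edgeR adjusted p = 0.18, 0.36 and 0.90). Leaving out 1 library moved them to between -2.93 (without IMAT 3) and -1.48 (without VAT 4), between -2.18 (without IMAT 3) and -0.97 (without IMAT 2), and between -0.88 (without VAT 1) and -0.18 (without VAT 4). With the entries of each form joined, an alternative added after seeing the data, miR-130b gave -0.92 between IMAT and VAT and -0.39 between IMAT and SAT (edgeR adjusted p = 0.26 and 0.71).

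miR-130d, a form named in salmon, had its lowest mean in VAT. One of its 4 equal entries, miR-130d-1-3p, held 37, 15, 22 and 53 reads in VAT 1, 3, 4 and 5, then 11, 51, 46, 27 and 37 in SAT 1 to 5, and 7, 12, 8, 4 and 17 in IMAT 1 to 5. Its level was 3.35 ± 2.11 in VAT, 7.56 ± 3.42 in SAT and 5.55 ± 2.54 in IMAT, and the ranges overlapped. Its lowest SAT library was SAT 1, at 3.15, and VAT 4 was at 2.16, among the low ones. The log2 fold change was 1.17 ± 0.63 between SAT and VAT, 0.71 ± 0.63 between IMAT and VAT and -0.46 ± 0.59 between IMAT and SAT (edgeR adjusted p = 0.28, 0.46 and 0.70). With library totals as the only scaling the value between IMAT and VAT was -0.71. With totals without muscle miRNAs as the only scaling, added after seeing the data, it was 1.88 (edgeR adjusted p = 0.054). Of 28 alternatives, 0 passed between IMAT and VAT and 3 between IMAT and SAT. The order of the depots also followed the scale: the mean was 4.59 ± 1.72 in VAT, 9.96 ± 3.05 in SAT and 2.89 ± 1.48 in IMAT as deposited CPM, but 4.63 ± 1.69, 10.8 ± 3.43 and 17.6 ± 9.45 as CPM of the counts without muscle miRNAs.

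**Figure D2:**
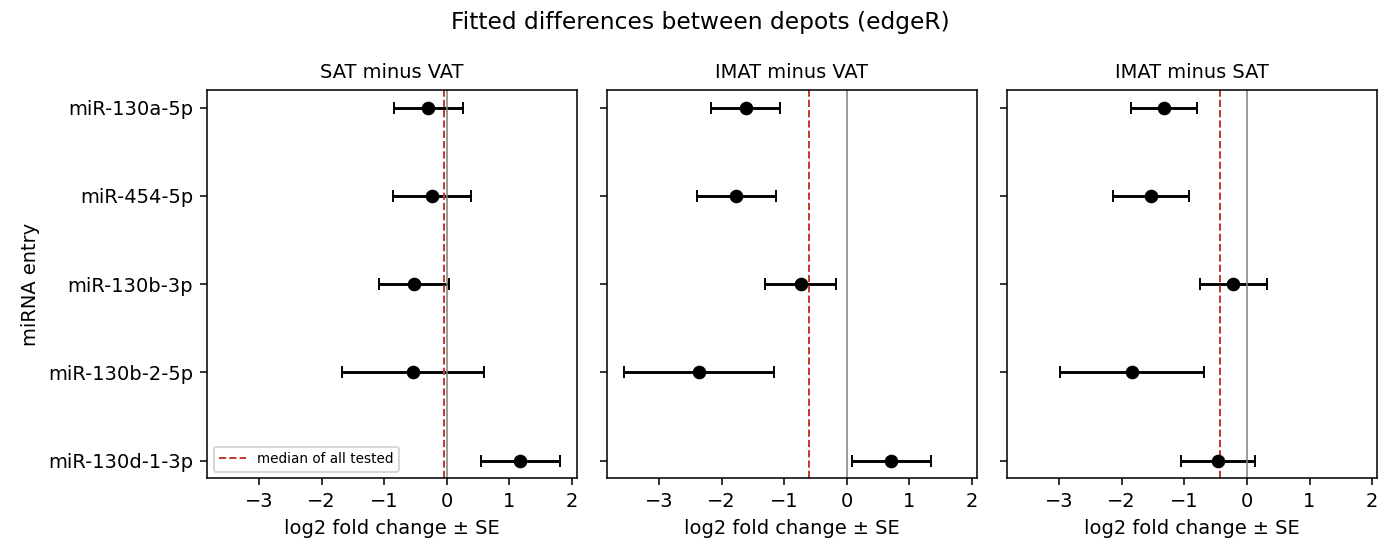
Fitted log2 fold change with its standard error for 5 family entries in the 3 comparisons of depots, from edgeR on all 14 libraries. The dashed red line is the median log2 fold change of all 327 entries tested, which is -0.05, -0.60 and -0.43 from left to right, and the grey line is 0.

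The miR-301 entries were near the lower limit of detection. miR-301d-5p was above 0 in 10 libraries with at most 32 reads (VAT 5), and miR-301d-3p in 9 libraries with at most 13, also in VAT 5. miR-301c-5p was above 0 in 5 libraries, namely VAT 1, 3 and 4 with 3, 4 and 20 reads and SAT 1 and 3 with 5 and 8, and it was listed at 0 in all 5 IMAT libraries. miR-301b-5p was also above 0 in 5 libraries, with 16 reads in VAT 4, 6 in VAT 5, 3 in SAT 2, 1 in IMAT 3 and 5 in IMAT 5. The remaining name, miR-301a-5p, held 11 reads in VAT 4 and 1 in SAT 4 and so fell outside the rule, with 2 libraries above 0 against 5 for the members just inside. At these counts no fold change is given, and differences between depots were not detectable at this depth.

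Over the 3 comparisons, 0 of 36 tests of members passed in edgeR, and 4 had an unadjusted p under 0.05. These 4 were miR-130a-5p and miR-454-5p, lower in fitted value in IMAT than in VAT and than in SAT. Adjusted p-values of all 36 ran from 0.068 to 0.97. The 36 include tests of the 4 miR-301 entries, where differences were not detectable, and of the 4 nearly equal miR-130d entries. They are thus not 36 separate chances of a call. Of all entries, edgeR called 12.5% between SAT and VAT, 13.5% between IMAT and VAT and 6.73% between IMAT and SAT. An unadjusted p under 0.05 was found for 24.8%, 33.9% and 25.7% of all entries in the same order, and for 0, 2 and 2 of the 12 members. With each form counted once it was 0, 2 and 2 of 7. These shares were not tested against each other. DESeq2 called 1 member, miR-454-5p between IMAT and VAT, and 26.9% of all entries there, and gave no adjusted p for miR-130a-5p. limma on log2(deposited CPM + 1), which has no correction for the muscle share, called 4 members between IMAT and VAT and 8 between IMAT and SAT, all lower in IMAT, where it called 53.8% and 53.2% of all entries. The median log2 fold change of the 12 members was -0.22 between SAT and VAT, -0.38 between IMAT and VAT and -0.46 between IMAT and SAT, against -0.05, -0.60 and -0.43 over all entries tested. With each form counted once the medians were -0.28, -0.92 and -0.39, against -0.05, -0.52 and -0.33 over all entries of that fit. The side on which the family median lay between IMAT and VAT thus turned with the counting. Both sets hold the miR-301 entries, whose fold changes are too uncertain to give, so no result is drawn from that turn. Setting miR-301c-5p, at 0 in IMAT, to the bound that 3 counts over the depot allow left these medians as they were. The comparisons share depots, so these values are not independent of each other.

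How low the family stood in IMAT depended on the total it was set against. With each form counted once, the family held 1756, 1376, 10254 and 2852 reads in VAT 1, 3, 4 and 5, and 1568, 1725, 1518, 1117 and 1402 in SAT 1 to 5. In IMAT 1 to 5 it held 227, 171, 147, 63 and 1755. In CPM of all counts this was 257 to 1538 in VAT, 365 to 761 in SAT and 38.6 to 148 in IMAT, so that IMAT lay below both other depots. After TMM scaling the ranges were 157 to 1006, 251 to 449 and 98.5 to 215, and IMAT overlapped with VAT only. In CPM of the counts without the muscle miRNAs they were 258 to 1540, 386 to 832 and 371 to 430. There all 5 IMAT libraries lay above VAT 1, 3 and 5, at 330, 319 and 258, and below VAT 4, at 1540. On that last scale IMAT had the narrowest spread, 392.1 ± 24.5, against 514 ± 183 in SAT and 612 ± 619 in VAT. The SAT and VAT values each include 1 high library, SAT 1 at 832 and VAT 4 at 1540. The other SAT libraries were at 386 to 505. The median log2 fold change of all entries between IMAT and VAT was -1.98 with library totals as the only scaling and -0.60 with TMM. With totals that leave out muscle miRNAs it was -0.49 where TMM was applied as well and 0.30 where those totals were the only scaling, a setting added after seeing the data. The family sums are a description and were not tested.

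**Figure D3:**
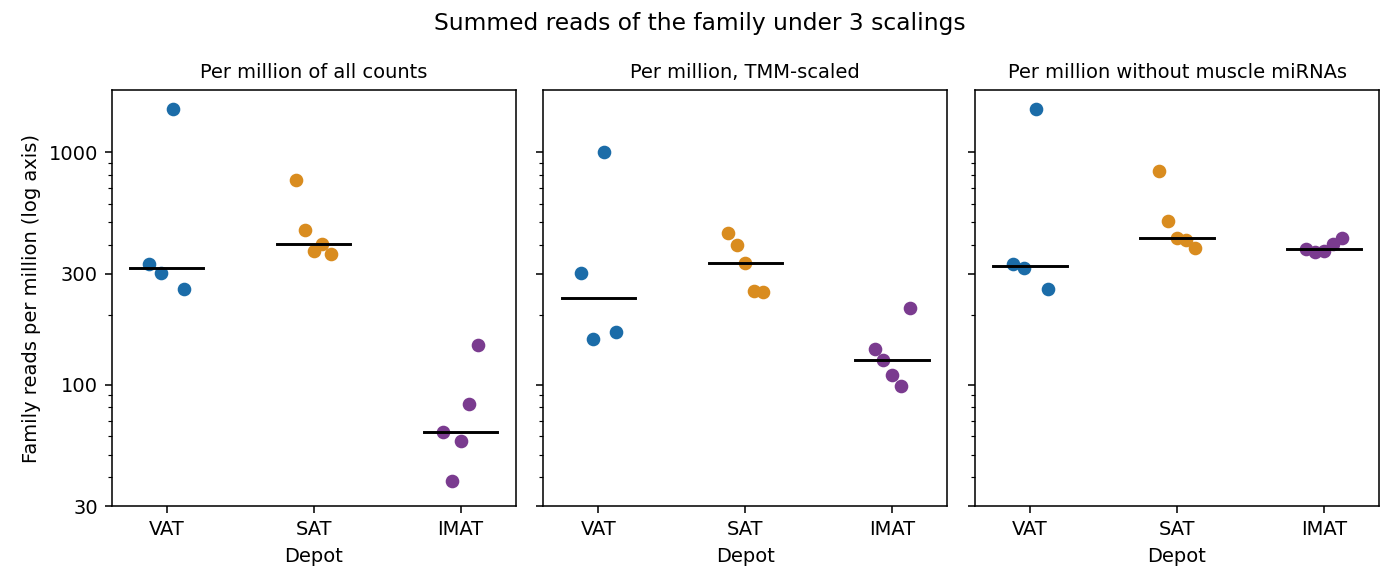
Summed reads of the family as CPM, with each form counted once, in every library by depot under 3 scalings, on a log axis. Horizontal lines are medians, which for VAT, SAT and IMAT are 317, 405 and 62.7 CPM of all counts, 236, 335 and 128 after TMM scaling, and 325, 426 and 382 without the muscle miRNAs.

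The same held entry by entry. In deposited CPM, 4 of 12 members lay wholly lower in IMAT than in VAT, where 27.5% of all entries did, and 8 of 12 wholly lower than in SAT, where 42.5% of all entries did. In TMM-scaled CPM 1 member, miR-454-5p, lay wholly lower in IMAT than in VAT (5.5% of all entries), and 2, miR-130a-5p and miR-130b-2-5p, wholly lower than in SAT (13.8% of all entries). When muscle miRNAs were not part of the totals 0 of 12 did in either comparison (2.45% and 3.98% of all entries). The miR-130d counts, equal in 13 libraries, enter these numbers 4 times. Between SAT and VAT 0 of 12 members were separated on any of the 3 scales, where 16.2% (TMM), 16.5% (deposited) and 17.1% (without muscle miRNAs) of all entries were.

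The make-up of the family's listed entries does not depend on scaling between libraries, as it sets members against each other within a library. Here miR-130a and miR-454 stand for their 5p entries alone, miR-130d for 3p entries and miR-130b for the higher of both arms. The shares thus mix arms and leave out the 3p arms that were not listed. With each form counted once, miR-130a took 83.4 ± 9.07% of the family's reads in VAT, 87.6 ± 2.52% in SAT and 85.2 ± 3.25% in IMAT. miR-454 took 10.8 ± 6.47%, 7.03 ± 1.51% and 4.77 ± 3.32%, miR-130b 3.78 ± 1.88%, 2.70 ± 0.664% and 4.58 ± 1.08%, and miR-130d 1.32 ± 0.853%, 2.35 ± 0.953% and 4.57 ± 2.50%. In VAT the miR-454 share ran from 2.85% in VAT 4 to 18.4% in VAT 5. In IMAT it ran from 1.36% in IMAT 3, 2 of 147 reads with an exact Clopper-Pearson 95% interval of 0.165 to 4.83%, to 9.17% in IMAT 5 (7.86 to 10.6%). The miR-130d share was 3.08 to 7.02% in IMAT 1 to 4 but 0.969% in IMAT 5 (0.565 to 1.55%). The shares in IMAT 1 to 4 rest on 7, 12, 8 and 4 reads. In IMAT 1 the interval, 1.25 to 6.25%, overlapped that of IMAT 5. Reads of an amplified library are not independent molecules, so the intervals hold counting error alone.

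**Figure D4:**
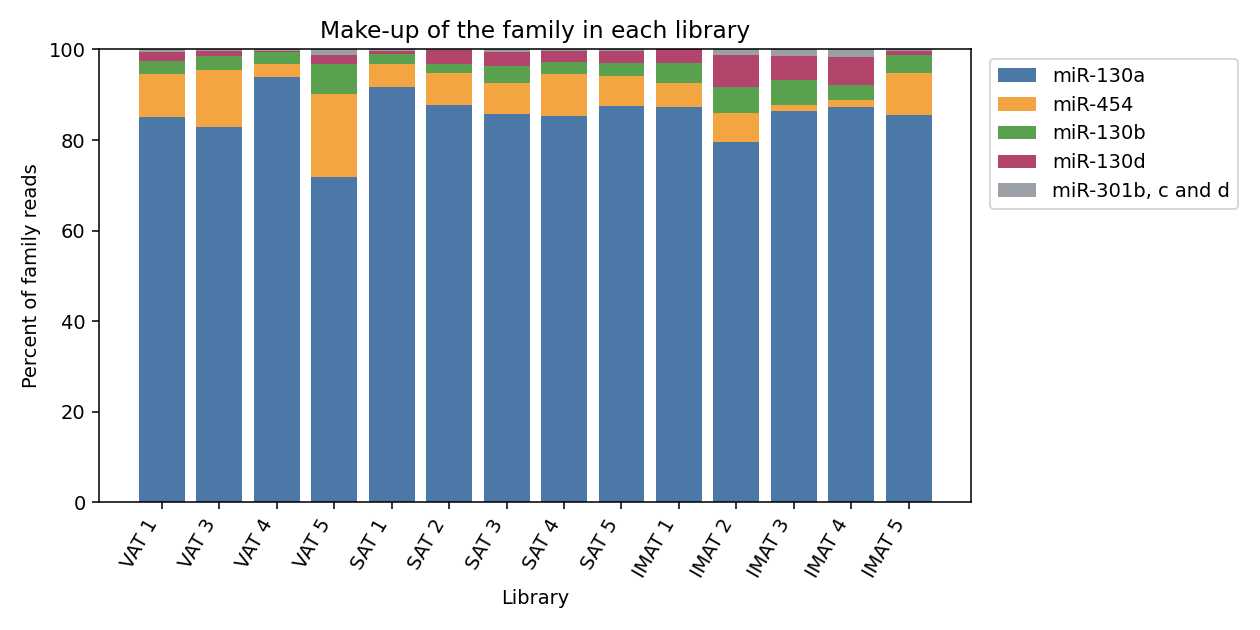
Percent of the family's reads taken by each named form in every library, with the highest count among the entries of a form. miR-130a and miR-454 are 5p entries alone and miR-130d is 3p alone. miR-130a takes 71.8% (VAT 5) to 93.9% (VAT 4), and the miR-454 share is smallest in IMAT 3 and IMAT 4.

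Shares were compared between depots for the 6 entries above 0 in all 14 libraries, as 18 two-sided exact permutation tests on the log2 share of the reads of all 12 entries. None passed after Benjamini-Hochberg adjustment over the 18. The smallest p was that of miR-130b-3p between IMAT and SAT, with a log2 difference of 1.02 (exact p = 0.0079, the smallest that 5 against 5 libraries allow, adjusted p = 0.14). Its share was 3.93 to 4.78% in 4 of the IMAT libraries and 2.63% in IMAT 4, where it rests on 2 of 76 reads, against 1.80 to 2.63% in SAT, where SAT 5 held 41 of 1558. The shares of IMAT 4 and SAT 5 were thus equal, and the groups were apart only after 0.5 reads were added to each count. With each form counted once the miR-130b shares overlapped, from 3.17 to 5.85% in IMAT and 2.03 to 3.69% in SAT. They too were apart once 0.5 reads were added, with a log2 difference of 0.85. Its exact p was again 0.0079, with an adjusted p of 0.095 over 12 tests. miR-130d-1-3p had a larger share in IMAT than in VAT by a log2 of 1.89 (exact p = 0.063, adjusted p = 0.29). For miR-454-5p the log2 differences in share were -1.18 between IMAT and VAT and -0.79 between IMAT and SAT (exact p = 0.17 and 0.21, adjusted p = 0.34 each). Without IMAT 5 the IMAT and SAT differences of miR-130b-3p (1.04) and of the miR-130d entries (1.28) passed, both with an exact adjusted p of 0.036. The 3 miR-130d entries tested had equal counts, so 1 set of counts entered that adjustment 3 times. Over 18 alternatives the adjusted p reached 0.14 for miR-130b-3p and 0.64 for miR-130d. With each form counted once and IMAT 5 left out, the exact adjusted p of both forms was 0.095.

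Other miRNAs described in mammals as restraining or promoting fat cell formation were counted in the same way. Both lists were made by miRNA number and hold every entry of a number, on either arm. A role described for a number need not hold for each arm or salmon form listed, and none was measured here. Of 17 tested entries on the restraining list, which leaves out this family, edgeR called 1 higher and 1 lower in IMAT than in VAT. It called 1 higher in SAT than in VAT, and 0 between IMAT and SAT. Of all entries 7.65% were higher and 5.81% lower in IMAT than in VAT, 7.34% and 5.2% in SAT than in VAT, and 3.67% and 3.06% in IMAT than in SAT. The called ones were forms of miR-27, which also represses PPARG in mammals: miR-27b-3p was higher in IMAT and in SAT than in VAT (log2 1.65 ± 0.36 and 2.03 ± 0.37, edgeR adjusted p = 0.0063 and 0.0025), and miR-27c-3p was lower in IMAT than in VAT (-1.22 ± 0.33, edgeR adjusted p = 0.022). None of 36 tested entries on the promoting list was called lower. Called higher were 3 in IMAT than in VAT, 1 in SAT than in VAT and 1 in IMAT than in SAT. These were miR-26d-5p (5.95 ± 0.70 against VAT and 4.19 ± 0.58 against SAT in IMAT, edgeR adjusted p = 0.00013 and 0.0018), miR-204-5p (4.36 ± 0.56 in IMAT and 5.78 ± 0.60 in SAT against VAT, edgeR adjusted p = 0.00018 and 3.1e-05) and miR-210-5p (2.29 ± 0.50 in IMAT against VAT, edgeR adjusted p = 0.0063). The medians of the restraining list were -0.32, -0.41 and -0.23, and those of the promoting list -0.34, -0.59 and -0.36, for SAT against VAT, IMAT against VAT and IMAT against SAT.

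The named miRNAs whose levels followed miR-130a-5p most closely over the 14 libraries, among named entries above 0 in each of them, were let-7d-5p, miR-214-5p and miR-365-3p. Pearson's r of log2(TMM-scaled CPM + 1) was 0.93, 0.91 and 0.90, and 0.86, 0.85 and 0.91 without VAT 4. The points come from 3 depots, and the entries of a library share its depth and scaling. For miR-130b-3p, the most abundant 3p member, they were miR-150-5p, miR-25-3-3p and miR-462b-5p, with r of 0.84, 0.77 and 0.75, and 0.71, 0.56 and 0.77 without VAT 4. With IMAT 4 left out as well, the values were 0.85, 0.84 and 0.89 for miR-130a-5p and 0.63, 0.40 and 0.74 for miR-130b-3p. For deviations from the depot means over all 14 libraries, r was 0.97, 0.88 and 0.87 for miR-130a-5p. It was 0.85, 0.75 and 0.74 for miR-130b-3p. miR-214 is on the stroma list and miR-150 on the white blood cell list, and the part of other cells in these values was not tested. Of the entries named here edgeR called only miR-365-3p, which was lower in IMAT. Its log2 fold change was -2.54 ± 0.53 against VAT and -2.47 ± 0.51 against SAT (edgeR adjusted p = 0.0048 and 0.0089). The correlations describe the 14 libraries and carry no test.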

How the data were processed

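The authors deposited whole-number read counts per miRNA entry, not scaled, and for each library a column whose header says TPM. These deposited values equal counts scaled to 1000000 (CPM) of the library's summed counts without the first entry of the table, within 0.005, with no length term. The deposited table also gives the length of each mature sequence, 18 to 25 nt. Per the submitters' processing notes, Trimmomatic 0.30 and edgeR 3.4.6 were among the tools, with no step attached. Aligner, caller and build: not given in the sources used here. No sequences or coordinates are reported. The table has 2 per-sample columns whose names fit none of the labels; these were left aside.

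The depot in a library's title gave its group. Entries counted in 4 or more libraries entered 1 fit of all 14 libraries with the quasi-likelihood test of edgeR 4.0.16 in its older form (R 4.3.3, limma 3.58.1, DESeq2 1.42.0), with TMM scaling, no block and Benjamini-Hochberg adjustment within each comparison. Shares of family reads had 0.5 reads added and were compared by exact permutation tests in Python 3.11.15. Entries were linked when their counts agreed in every library within the larger of 2 reads and 10% and reached 20 reads. All members were named, and likeness was ranked by Pearson's r among entries above 0 in all 14 libraries. The members, lists and tests were chosen with earlier results of these data known. Alternatives were library totals, median-ratio scaling, muscle miRNAs left out of the totals, other filters, DESeq2, limma with pseudocounts of 1 and 0.1, pairs of depots, a replicate block, joined entries and each library left out. The newer form of the edgeR test, joining the entries of a form (also with IMAT 5 left out) and totals without muscle miRNAs as the only scaling were added after seeing the data.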

Additional observations from a re-analysis of the deposited data

Results flagged for a closer look

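Within each depot, the highest and lowest library was compared with its nearest neighbour for levels and shares of the family by Dixon's 95% criterion. Of 41 groups checked 5 gave a library apart. The criterion's rate of about 1 in 20 holds for independent, normally spread values. Shares within a library depend on each other and some levels lie near 0, so the 5 of 41 cannot be set against that rate. VAT 4 stood apart for miR-130a-5p, at a TMM-scaled CPM of 945 against 258 in the nearest VAT library. SAT 2 stood apart for miR-301b-5p, at 0.692 from 3 reads, with the other 4 SAT libraries listed at 0. Any count above 0 would have stood apart there. IMAT 2 had the lowest miR-130a share of family reads in IMAT, 79.5% (136 of 171 reads) against 85.5% in the nearest library. No counting interval was worked out for that share. VAT 5 had the highest miR-130b share in VAT, 6.59% against 3.05%. SAT 1 had the lowest miR-130d share in SAT, 0.702% against 2.42%.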

How the results depend on the processing

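Over the whole table edgeR called 41, 44 and 22 entries (SAT against VAT, IMAT against VAT, IMAT against SAT). Without a filter it called 17, 26 and 11, DESeq2 called 63, 88 and 47, and the newer form of the edgeR test, added after seeing the data, called 71 and 35 in the last 2. Library totals gave 162 and 131 there, limma 176 and 174 with a pseudocount of 1 and 170 and 160 with 0.1, and the fit of only IMAT and VAT 26. Leaving out 1 library gave 26 to 48, 33 to 68 and 15 to 47. The labels do not say whether same-numbered libraries share a fish. Deviations correlated over 0.1 in 3 of 13 same-numbered pairs and in 13 of 52 other pairs, with a median of -0.013 in both. Of 14 libraries 1 matched best with its own number. With so few libraries per depot these values cannot tell whether fish were shared. With the replicate block the counts were 27, 28 and 16, and no family entry was called.

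The 0 family entries called between IMAT and VAT became 4 with library totals, 2 with median-ratio scaling, 1 with DESeq2, 4 with limma at either pseudocount, 2 with the newer edgeR form, 1 with linked entries joined and 0 to 2 with 1 library left out. Median-ratio scaling called 53 of 327 entries of the table there and linked entries joined 53 of 282. Between IMAT and SAT they became 7 with library totals, 8 with limma at either pseudocount and 0 to 1 with 1 library left out. Between SAT and VAT the count stayed 0 in all alternatives run.

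Signs turned as follows, none past the threshold. miR-130a-5p (SAT against VAT) was 0.10 in limma at either pseudocount, 0.061 with the replicate block and -0.61 to 0.54 with 1 library left out. miR-130b-3p (IMAT against VAT) was 0.17 with totals without muscle miRNAs as the only scaling. miR-130d-1-3p (IMAT against VAT) was -0.71 with library totals, and -0.55 and -0.71 in limma. Between IMAT and SAT, miR-130b-3p was 0.13 with median-ratio scaling, 0.16 with totals that leave out muscle miRNAs, 0.66 with those totals as the only scaling, 0.20 without a filter, 0.21 with a stricter one, 0.17 in DESeq2, 0.18 in the fit of 2 depots and -0.33 to 0.35 with 1 library left out. miR-130d-1-3p was 0.67 with totals without muscle as the only scaling, 0.068 in the fit of 2 depots and -0.66 to 0.20 with 1 library left out. The causes were not tested.

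For shares of family reads, miR-130a-5p turned between IMAT and VAT (log2 0.014 with linked members joined, 0.037 with each form counted once, 0.035 when IMAT 5 was left out too, -0.16 to 0.014 with 1 library left out) and between SAT and VAT (-0.044 to 0.13). Between IMAT and SAT, leaving out 1 library gave 0.96 to 1.12 for miR-130b-3p and 0.45 to 1.28 for miR-130d-1-3p. IMAT 4, with 63 family reads, has the widest counting intervals for shares of miR-130d and miR-454 in IMAT, 1.76 to 15.5% for miR-130d.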
